A study of Mus musculus with 15 samples.

Results

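The 5 miRNAs described here, in Kupffer cells (macrophages that live in the liver), belong to the miR-17-92 cluster and its relatives: mmu-miR-19a-3p, mmu-miR-20a-5p, mmu-miR-92a-1-5p and mmu-miR-92a-3p, with hairpins in the cluster, and mmu-miR-93-5p, a relative encoded elsewhere (the prefix for mouse is left out below). They were chosen by name and all 5 were among the 248 mature miRNAs of each of the 2 deposited tables. miR-20a-3p, from the same hairpin as miR-20a-5p, was the other row from the 3 related clusters and is given beside them. The arms miR-17-5p, miR-18a-5p and miR-19b-3p were not among the rows of the deposited tables. Small RNA was sequenced from Kupffer cells of C57BL/6J mice, labelled wt, and of obese ob/ob mice, whose leptin gene is defective. At 9 weeks of age there were 4 wt and 3 ob/ob libraries, at 14 weeks 4 of each genotype, and the labels name no treatment. The sources used here give neither the background strain of the ob/ob mice, nor whether animals were pooled, nor how the cells were isolated. Values are RPM, reads per 1000000 reads of a library.

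The miR-17-92 cluster is transcribed as one long RNA from which several hairpins are cut, and each hairpin can give a 5p and a 3p arm. Arms of one transcript are therefore made together, but the level of each also depends on its processing and on its stability. A miRNA selects targets mainly through its seed, bases 2 to 8, and the arms of this cluster fall into separate seed families. The cluster is known as an oncogenic miRNA locus that promotes proliferation and survival, and it restrains differentiation in cells of the myeloid lineage.

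The 6 hairpins of the cluster lie within 836 bases on the plus strand of chromosome 14 (GRCm38), each overlapping an annotated exon of the lincRNA Mir17hg at chr14:115042879-115046727. Mir19a lies at chr14:115044000-115044081, Mir20a follows at chr14:115044157-115044263, and Mir92-1 is the last at chr14:115044427-115044506. The miR-92a-1-5p arm belongs to Mir92-1. miR-92a-3p can come from Mir92-1 and also from Mir92-2 at chrX:52741838-52741928. miR-93-5p comes from Mir93 at chr5:138165523-138165610 on the minus strand, within Mcm7, which encodes a subunit of the replicative helicase, and overlapping 1 annotated exon of that gene.

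**Figure D1:**
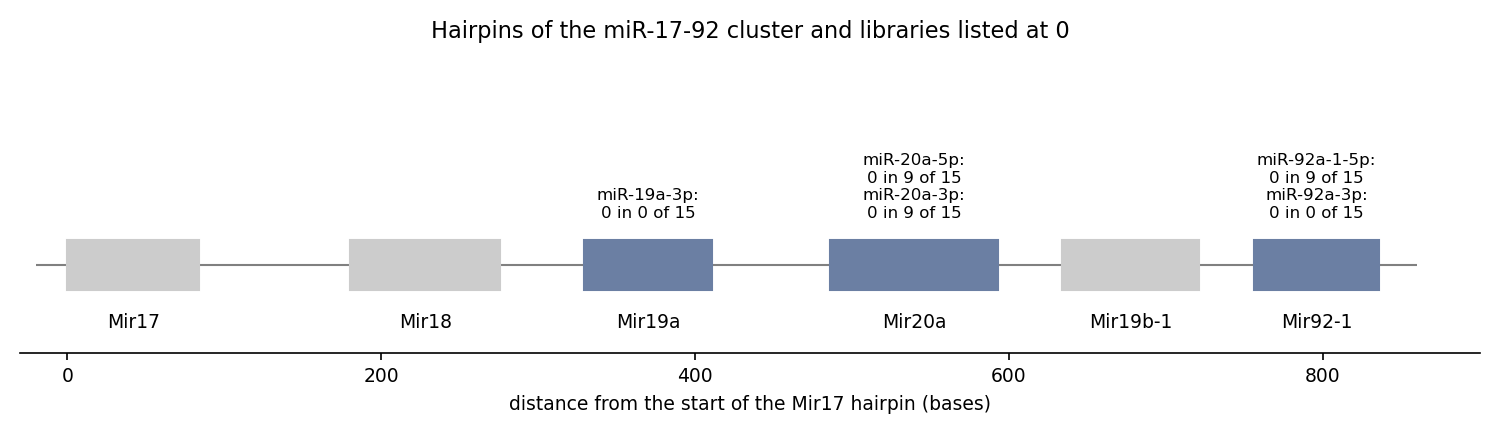
Map of the 6 hairpins of the miR-17-92 cluster, drawn to scale by distance in bases from the start of Mir17; blue hairpins have arms in the deposited tables and grey ones do not. Above each hairpin stands the number of the 15 libraries in which the arm is listed at exactly 0: 9 for both arms of Mir20a and for miR-92a-1-5p, 0 for miR-19a-3p and miR-92a-3p.

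The mature sequences are shown because they define the seed families, printed 5′ to 3′ from RefSeq (GRCm38.p6) with the seed in capitals:
miR-19a-3p: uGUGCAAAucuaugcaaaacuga
miR-20a-5p: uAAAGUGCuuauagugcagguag
miR-93-5p: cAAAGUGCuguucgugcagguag
miR-92a-3p: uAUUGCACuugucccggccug
miR-92a-1-5p: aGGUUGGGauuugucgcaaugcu
miR-20a-3p: aCUGCAUUacgagcacuuaaag

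miR-20a-5p and miR-93-5p share the seed AAAGUGC and differ at 4 of 23 bases (U1C, U10G, A11U and A13C, the base of miR-20a-5p first, positions counted from 1 at the 5′ end). The other 4 arms have 4 different seeds. miR-19a-3p differs from miR-19b-3p by U11C alone, and miR-20a-5p differs from miR-17-5p by U1C and U12C. The sources used here do not say how reads that match such near-identical arms were assigned, so the values of both are uncertain to that extent. The GC content was 34.8% in miR-19a-3p, 39.1% in miR-20a-5p, 47.8% in miR-92a-1-5p, 52.2% in miR-93-5p and 57.1% in miR-92a-3p.

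The hairpins of Mir19a and Mir20a are shown because they are neighbours whose arms differed in the number of libraries at 0, with the arms present in the tables in capitals:
Mir19a: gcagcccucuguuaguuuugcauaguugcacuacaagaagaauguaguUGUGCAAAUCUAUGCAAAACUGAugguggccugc
Mir20a: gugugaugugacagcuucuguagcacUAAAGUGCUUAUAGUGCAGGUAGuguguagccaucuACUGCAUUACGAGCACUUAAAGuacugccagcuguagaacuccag

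Each library's values were whole multiples of 1 step, read as the worth of 1 read, which put the depth, in units of 1000000 reads, at 13.4 to 22.8 (wt) and 25.9 to 33.9 (ob/ob) for 9 weeks, and at 9.08 to 39.0 (wt) and 44.0 to 98.1 (ob/ob) for 14 weeks. The 248 rows summed to between 230785 and 358621 RPM in 14 libraries, while wt replicate 1 of 14 weeks stood apart at 147387 RPM. Of the macrophage and myeloid markers, 5 of 7 were in the tables and summed to 15154 to 46932 RPM in the 15 libraries, most of it miR-21a-5p. Among them miR-142a-3p was at most 0.15 RPM, with a lowest value of 0, in all groups but ob/ob at 14 weeks (0.159 to 18.6 RPM). In wt at 14 weeks it averaged 0.021 RPM, with 0.084 RPM as the highest value. Because the sums differed between groups, fold changes are also given after median-ratio rescaling of the libraries within an age, and after a further correction for GC content.

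The members spanned a wide range of levels in wt cells. At 9 weeks miR-92a-3p averaged 3330 ± 291 RPM (SD, n = 4) and ranked 18th of 248, and miR-93-5p averaged 515 ± 69.8 RPM and ranked 40th. miR-19a-3p averaged 12.6 ± 3.22 RPM and ranked 111th. At 14 weeks in ob/ob, miR-19a-3p averaged 62.3 ± 26.8 RPM (SD, n = 4) and ranked 73rd, while miR-92a-3p ranked 19th with 2655 ± 451 RPM. These are levels per library and not per length, for mature arms of nearly equal length. In these bulk libraries, fewer cells of a type and less RNA per cell cannot be told apart.

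Both arms of Mir20a and the 5p arm of Mir92-1 were listed at exactly 0 in the same 9 libraries and above 0 in the same 6. miR-20a-5p, the abundant arm of its hairpin, stood at 43.4, 0, 0 and 37.6 RPM in wt replicates 1 to 4 of 9 weeks and at 35.6, 0 and 27.8 RPM in ob/ob replicates 1 to 3. At 14 weeks it stood at 14.5, 0, 0 and 0 RPM in wt and at 0, 0, 0 and 55.1 RPM in ob/ob. Libraries at 0 and above 0 thus occurred in each of the 4 groups. miR-92a-1-5p, the less abundant arm of Mir92-1, stood at 40.8, 0, 0 and 20.6 RPM in wt and at 22.7, 0 and 16.4 RPM in ob/ob at 9 weeks. At 14 weeks it stood at 16.6, 0, 0 and 0 RPM in wt and at 0, 0, 0 and 22.3 RPM in ob/ob. The rare miR-20a-3p followed the same libraries, with 6 and 9 reads (wt) and 16 and 18 reads (ob/ob) at 9 weeks, then 1 read in wt replicate 1 and 27 reads in ob/ob replicate 4 at 14 weeks.

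**Figure D2:**
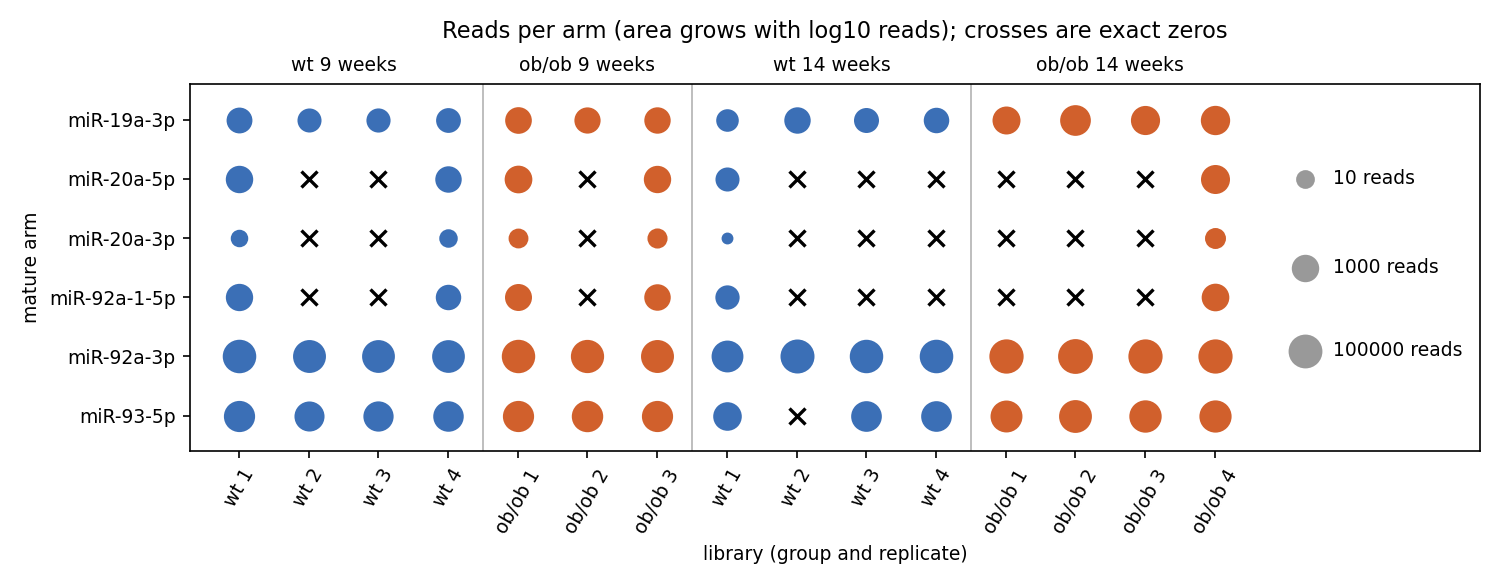
Reads of the 5 members and miR-20a-3p (rows) in the 15 libraries (columns, grouped by genotype and age); the area of a dot grows with log10 of the reads and a cross marks an exact 0. The crosses of miR-20a-5p, miR-20a-3p and miR-92a-1-5p fall in the same 9 libraries, and miR-93-5p has a single cross, in wt replicate 2 of 14 weeks.

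No other row had this pattern. Of the 248 rows, 79 were at 0 in at least 1 library and 57 in at least 2. Only 2 other patterns of at least 2 zeros were shared between rows. Those patterns covered 5 rows with at most 4 zeros each and levels of up to 4.72 RPM. miR-19a-3p, encoded next to Mir20a, was above 0 in all 15 libraries with 60 to 9410 reads. miR-92a-3p, the other arm of Mir92-1 and also an arm of Mir92-2, was above 0 in all 15 as well, at 1496 RPM or more.

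The zeros stood beside values well above the detection limit. In the 9 libraries at 0, the lowest level of miR-20a-5p among the libraries above 0 of the same group would stand for 345 to 5408 reads, and that of miR-92a-1-5p for 277 to 2187 reads. A count of 0 allows up to 3 reads, which is 0.0306 to 0.223 RPM at these depths and covers counting error only. At 0 in at least 1 library beside at least 20 RPM in another of the same group were 8 of the 248 rows (3.23%). Among them were 3 of the 5 members: miR-20a-5p, miR-92a-1-5p and miR-93-5p. The other 5, named after their values were seen, were miR-126a-3p, miR-151-3p, miR-199b-3p, miR-30a-3p and miR-450a-5p, which belong to other loci. Whether an exact 0 in these tables stands for missing RNA or for reads that were not assigned was not tested, and such values are given as listed, without a group mean.

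In the 6 libraries above 0, these arms can be set against the members without zeros. miR-92a-1-5p amounted to between 0.691% and 1.18% of miR-92a-3p, with 1.18% and 0.691% in wt and 1.04% and 1.09% in ob/ob at 9 weeks. miR-20a-5p stood at 265% and 267% of miR-19a-3p in wt at 9 weeks and at 191% and 181% in ob/ob. At 14 weeks it stood at 220% in wt replicate 1 and at 80.8% in ob/ob replicate 4. The latter was the only library of the 6 in which miR-19a-3p exceeded miR-20a-5p. With 1 library above 0 per genotype at 14 weeks, no test was made of these ratios.

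miR-19a-3p was the member that rose in ob/ob Kupffer cells at 14 weeks. It stood at 6.61, 13.6, 9.53 and 12.6 RPM in wt and at 32.4, 96.0, 52.7 and 68.2 RPM in ob/ob. The lowest ob/ob library was above the highest wt library, as in 22.2% of the rows tested. The difference was 2.45 ± 0.37 (SE) on the log2(RPM + 0.5) scale, a 5.45-fold rise, with an adjusted p of 0.00256 in limma over the 171 rows tested. Of those rows 11.7% were called higher in ob/ob and 15.2% were called in either direction, and miR-19a-3p had the 4th smallest p. It was 2.23 ± 0.34 after rescaling (adjusted p = 0.00267, 15.5% called higher) and 1.81 ± 0.30 with the GC correction (adjusted p = 0.00295, 11.3% called higher). Leaving out each library in turn gave 2.20 to 2.72. The difference was 2.49 in sequencing lane 1 alone (replicates 1 and 2, adjusted p = 0.0828 in limma) and 2.40 in lane 2 alone (replicates 3 and 4, adjusted p = 0.00802).

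At 9 weeks the call on miR-19a-3p depended on the scale. It stood at 16.4, 9.83, 9.95 and 14.1 RPM in wt and at 18.6, 18 and 15.3 RPM in ob/ob. The lowest ob/ob library lay below the highest wt library. The difference was 0.48 ± 0.24 (SE) as deposited, with a limma adjusted p of 0.147 over 179 rows, of which 37.4% were called and 5.03% were called higher. The median difference of all rows was -0.51 as deposited at this age. After rescaling, miR-19a-3p was 0.97 ± 0.21 higher in ob/ob (limma adjusted p = 0.0208, 11.3% called higher) and the groups no longer overlapped, as in 19.2% of the rows. With the GC correction it was 0.72 ± 0.21 higher (limma adjusted p = 0.0372, 12.1% called higher).

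Other measures of the libraries moved with genotype beside miR-19a-3p. miR-144-5p, the 1 of 4 erythroid markers in the tables, stood at 0.331 to 1.49 RPM in the 8 wt libraries and at 11.6 to 32.4 RPM in the 7 ob/ob libraries. The 3 hepatocyte markers miR-122-5p, miR-192-5p and miR-194-5p, all 3 in the tables, summed to 1099 to 2222 RPM in wt and 3168 to 6898 RPM in ob/ob. miR-192-5p made up most of this sum, and miR-122-5p overlapped at 14 weeks (15.2 to 101 RPM in wt, 36.9 to 79.4 RPM in ob/ob). The macrophage and myeloid sum did not overlap at 14 weeks either, with 15154 to 22925 RPM in wt and 24232 to 46932 RPM in ob/ob, while at 9 weeks it did. Most of this sum was miR-21a-5p, at 13315 to 20004 RPM in wt and 21824 to 43352 RPM in ob/ob at 14 weeks. Of the rest, miR-142a-5p and miR-511-3p overlapped at that age, while the rarer miR-155-5p and miR-142a-3p were higher in ob/ob without overlap. Depth was also higher in each ob/ob library than in each wt library of the same age. For GC content, the slope was taken of each library's rescaled log2 deviation from the row means of its age. It was above 0 in all wt libraries (0.054 to 0.291 per 10% GC) and below 0 in all ob/ob libraries (-0.220 to -0.024). Such slopes balance around 0 within an age and do not give the trend of level itself. The part of the markers and of depth in the result was not tested. The sums of the endothelial, mesenchymal and lymphocyte markers overlapped between genotypes at 14 weeks. At 9 weeks the lymphocyte sum did not overlap, with 7298 to 7533 RPM in wt and 4854 to 6633 RPM in ob/ob.

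miR-92a-3p, the most abundant member, moved the other way at 9 weeks as deposited. It stood at 3453, 3660, 3222 and 2986 RPM in wt and at 2187, 2420 and 1496 RPM in ob/ob. All ob/ob libraries were below all wt libraries, as in 41.3% of the rows tested. The difference was -0.74 ± 0.20 (SE, limma adjusted p = 0.0220), where 32.4% of the rows were called lower. Leaving out 1 library ended the call in 3 of 7 cases: the limma adjusted p was 0.0511 without the first wt replicate, 0.0595 without the second and 0.0514 without the third ob/ob replicate. It was also lost after rescaling, at -0.23 ± 0.18 (limma adjusted p = 0.374), and with the GC correction the difference was -0.00 ± 0.17 (limma adjusted p = 0.980).

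At 14 weeks miR-92a-3p did not pass the test. It stood at 2372, 2951, 3186 and 3354 RPM in wt and at 3279, 2277, 2379 and 2686 RPM in ob/ob. The groups overlapped, with ob/ob replicate 1 among the highest libraries. The difference was -0.16 ± 0.23 (SE, limma adjusted p = 0.693), and 2 SE to either side reached from -0.62 to 0.29.

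miR-93-5p, which has the seed of miR-20a-5p but another locus, passed the test at neither age. At 9 weeks it stood at 585, 436, 477 and 560 RPM in wt and at 399, 607 and 388 RPM in ob/ob. The groups overlapped, with 1 ob/ob library above all wt libraries and the other 2 below all of them. The difference was -0.17 ± 0.22 (SE, limma adjusted p = 0.575) as deposited and 0.34 ± 0.20 after rescaling (limma adjusted p = 0.245), so that its sign depended on the scale.

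At 14 weeks miR-93-5p stood at 234, 0, 384 and 374 RPM in wt and at 523, 470, 542 and 558 RPM in ob/ob. All ob/ob libraries were above all wt libraries, again as in 22.2% of the rows. wt replicate 2 was at 0, where the lowest level of the other wt libraries would stand for 9125 reads. With that 0 included the difference was 3.03 ± 2.20 (SE, limma adjusted p = 0.415). Without that library it was 0.69 ± 0.30 (limma adjusted p = 0.153), and with the 0 taken as missing 0.69 ± 0.29 (limma adjusted p = 0.129).

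**Figure D3:**
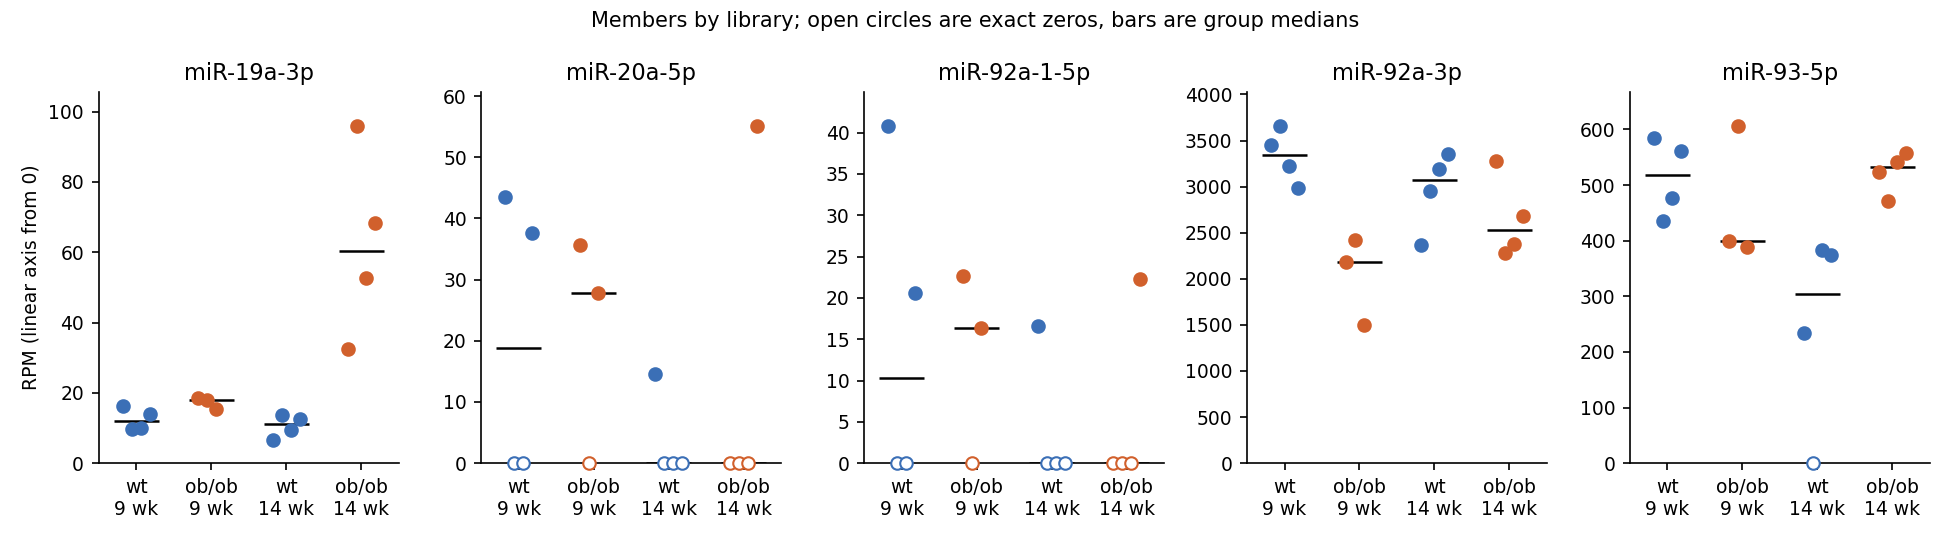
RPM of the 5 members in each library (points) by genotype and age, each panel on its own linear axis from 0; bars are group medians and open circles exact zeros. The ob/ob libraries of 14 weeks reach 32.4 to 96.0 RPM for miR-19a-3p, above all other groups, while miR-92a-3p overlaps between genotypes at that age.

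For the members with zeros the tests carried little information. At 9 weeks miR-20a-5p differed by 0.82 ± 2.57 (SE, limma adjusted p = 0.845) and miR-92a-1-5p by 0.59 ± 2.35 (limma adjusted p = 0.883). With the zeros taken as missing, which left 2 libraries per group, the differences were -0.36 and -0.58. At 14 weeks both were above 0 in 2 of 8 libraries and were not tested.

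Ratios within a library do not depend on its scaling, and the ratio of miR-19a-3p to miR-92a-3p differed between genotypes over both ages. Both arms have a hairpin in 1 transcript, but miR-92a-3p can also come, with the same sequence, from Mir92-2. miR-19a-3p amounted to 0.474%, 0.269%, 0.309% and 0.471% of miR-92a-3p in wt at 9 weeks and to 0.851%, 0.744% and 1.03% in ob/ob. At 14 weeks it amounted to 0.279%, 0.461%, 0.299% and 0.375% in wt and to 0.987%, 4.22%, 2.22% and 2.54% in ob/ob. Every ob/ob library was above every wt library at both ages. How often the ratio of other pairs of rows separates the genotypes in this way was not counted. The ratio at 9 weeks was 2.35-fold higher in the obese mice, 1.23 on the log2 scale (two-sided exact permutation p = 0.0571, the smallest that 4 against 3 allow), and 6.35-fold higher at 14 weeks, 2.67 on the log2 scale (exact permutation p = 0.0286, the smallest that 4 against 4 allow). Over the 6 ratio tests both had an adjusted exact permutation p of 0.0686, above the threshold of 0.05. With genotype labels permuted within each age and both ages combined, the mean difference was 1.95 on the log2 scale (exact permutation p = 0.000816, the smallest possible, and 0.00245 adjusted over 3 ratios), higher in all 7 ob/ob libraries. This test of both ages was added after seeing the data. After rescaling and GC correction the differences of the ratio were 0.75 at 9 weeks and 1.87 at 14 weeks, and uncorrected within lanes 1 and 2 of 14 weeks 2.51 and 2.82.

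The other ratios moved less. miR-93-5p to miR-92a-3p, arms of different transcripts, at 9 weeks was 1.48-fold higher in ob/ob (exact permutation p = 0.114, adjusted 0.114), and the groups overlapped. At 14 weeks it was 1.81-fold higher over the 7 libraries without the 0 (exact permutation p = 0.0571, adjusted 0.0686). miR-19a-3p to miR-93-5p was 1.58-fold higher at 9 weeks and, again without the 0, 3.86-fold higher at 14 weeks (exact permutation p = 0.0571 each, adjusted 0.0686). With the library at 0 included, this 14 week difference changed sign. Over both ages and without that library, these ratios gave an exact permutation p of 0.00327 and 0.00163, adjusted 0.00327 and 0.00245. The test of both ages was added after seeing the data. With the GC correction the 9 week difference of miR-19a-3p to miR-93-5p was 0.28 on the log2 scale (exact permutation p = 0.229).

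**Figure D4:**
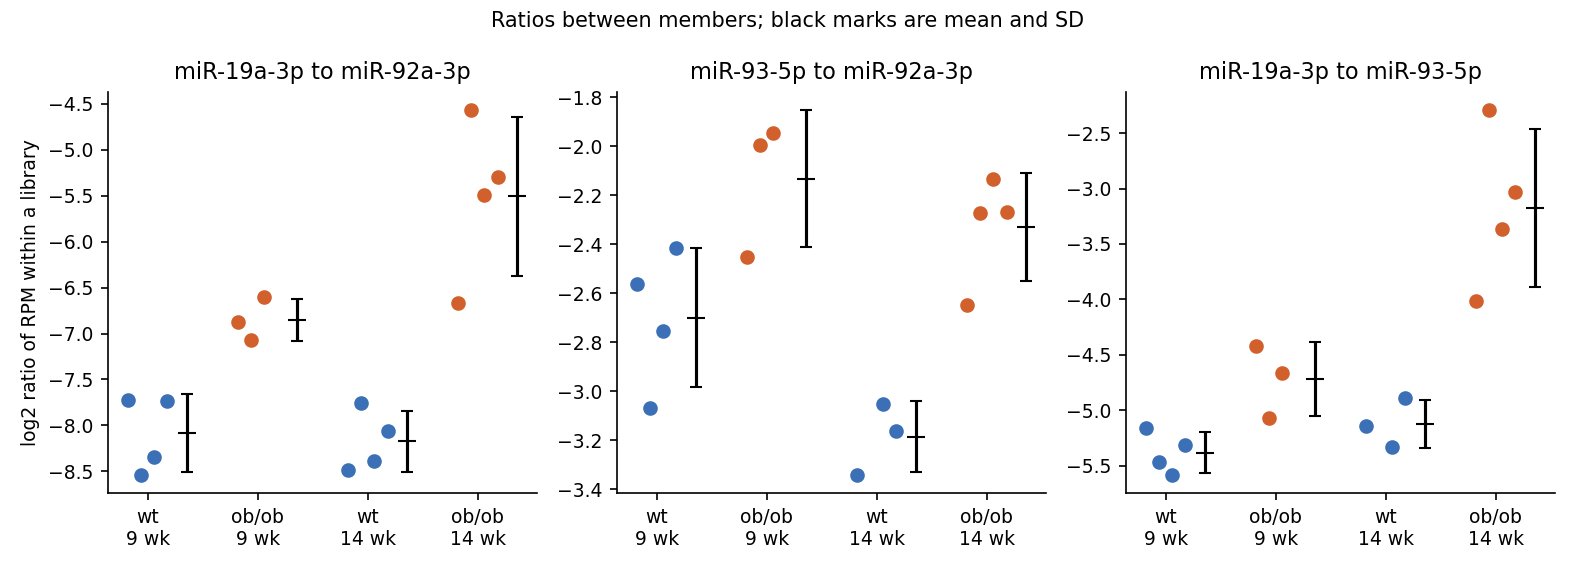
Log2 ratio of RPM within each library for 3 pairs of members (points) by genotype and age, with mean and SD as black marks; wt replicate 2 of 14 weeks is missing where miR-93-5p is at 0. For miR-19a-3p to miR-92a-3p every ob/ob library lies above every wt library of its age.

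**Figure D5:**
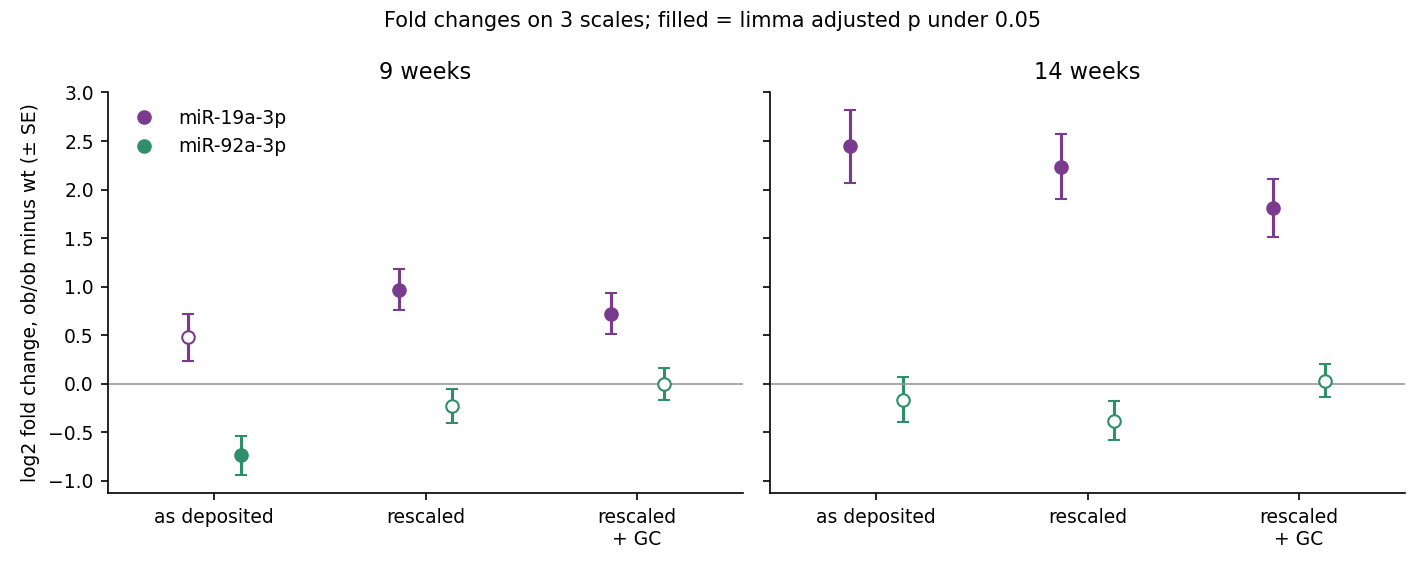
Log2 fold changes of ob/ob against wt with SE for miR-19a-3p (purple) and miR-92a-3p (green) at 9 and 14 weeks on 3 scales; filled points have a limma adjusted p under 0.05. miR-19a-3p is above 0 throughout and lowest as deposited at 9 weeks (0.48), and miR-92a-3p passes the test only as deposited at 9 weeks (-0.74).

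Whether the ob/ob effect differed between the ages was tested as the interaction of genotype and age over all 15 libraries. All libraries of 9 weeks were in sequencing lane 2, those of 14 weeks in lanes 1 and 2, and the fit had no lane term. Of 187 rows, 0 were called in limma-trend (0%), with 48 at an unadjusted p under 0.05, and limma voom on the reads also called 0, with 47. For miR-19a-3p the effect was 1.97 ± 0.47 (SE) larger at 14 weeks on the log2 scale (limma adjusted p = 0.0510), and 1.27 ± 0.42 after rescaling (limma adjusted p = 0.266). The interaction of miR-19a-3p passed the threshold without wt replicate 2 (adjusted p = 0.0441) or ob/ob replicate 1 (0.00986) of 14 weeks in limma. The median of all rows was 0.68 as deposited and -0.02 after rescaling. miR-92a-3p had an interaction of 0.57 as deposited and -0.15 after rescaling, and neither was called.

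Over the 15 libraries, after rescaling and centring on the mean of each age, the rows most like miR-19a-3p among 153 with no 0 were miR-340-5p (Pearson r = 0.94), miR-374b-5p (r = 0.91) and miR-144-5p (r = 0.90). The rows most like miR-92a-3p were miR-222-3p (r = 0.85), miR-320-3p (r = 0.84) and miR-674-3p (r = 0.83). Around the means of the 4 groups, and so without the genotype difference, the r with miR-19a-3p were 0.72, 0.60 and 0.83 in that order. Those with miR-92a-3p were 0.83, 0.78 and 0.79. miR-19a-3p and miR-92a-3p themselves had r = -0.59, and -0.19 around the means of the 4 groups. These correlations are descriptions, and the points share library depth and base composition: the rows most like miR-19a-3p had a GC content of 27.3% to 31.8%, and miR-222-3p and miR-674-3p of 52.2% and 50%.

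miR-92b-3p and miR-32-5p share the seed AUUGCAC with miR-92a-3p and were looked at after the values of the members were known. miR-92b-3p, which differs from miR-92a-3p by U10C and G21C over the 21 bases of the latter and is 22 bases long, averaged 1.39 ± 0.33 RPM (wt) against 0.840 ± 0.457 RPM (ob/ob) at 9 weeks, with 1.06 ± 0.35 against 0.534 ± 0.129 RPM at 14 weeks (SD, n = 4, and 3 for ob/ob at 9 weeks). miR-32-5p averaged 15.6 ± 3.27 RPM (wt) against 11 ± 1.58 RPM (ob/ob) at 9 weeks, with 9.21 ± 3.28 against 16.5 ± 4.47 RPM at 14 weeks. On the log2 scale, the 9 week difference of miR-92b-3p was -0.54 ± 0.30 (SE) as deposited and -0.20 ± 0.30 after rescaling. That of miR-32-5p was -0.47 ± 0.23 as deposited and 0.01 ± 0.22 after rescaling. Neither passed the limma test at 9 weeks on these scales, and the median of all rows was -0.51 as deposited. At 14 weeks miR-32-5p differed by 0.85 ± 0.36 as deposited and 0.64 ± 0.27 after rescaling, and passed on neither scale. Both miRNAs were far below miR-92a-3p in all 4 groups.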

How the data were processed

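Per the labels' protocols, Illumina's TruSeq Small RNA kit and a HiSeq sequencer were used. Demultiplexing with bcl2fastq, the trimmer cutadapt and both mm10 and GRCm38.p5 are named in the submitters' processing notes, while the sources used here give no aligner, counting tool or miRNA annotation. The deposited values were taken as RPM made by the authors, inferred from the values: all 3423 values above 0 were whole multiples of 1 step per library within 0.1 reads (100%), which gives depths of 9.08 to 98.1 in units of 1000000 reads. Reads are no independent molecules. The labels do not tie replicates to separate animals, and p-values therefore cover only the spread among these samples, which may be technical.

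The main test was limma 3.58.1 in R 4.3.3 on log2(RPM + 0.5) (trend, robust, Benjamini-Hochberg over all rows tested, threshold 0.05) for rows with at least 1 RPM in at least 3 libraries at 9 weeks, 4 at 14 weeks and 3 for the interaction. Fold changes on this scale understate changes of rare miRNAs. Rescaling divided each library by its median ratio to the geometric mean of its age, over rows never at 0 that averaged at least 5 RPM; the GC correction removed a linear slope per library, with a mature sequence for 218 of 248 rows. Ratios were tested by two-sided exact permutation with the smaller tail doubled. The fit was tested on simulated data. Alternatives were other pseudocounts and filters, zeros as missing, lanes, a replicate block and each library left out. Zeros were taken as missing only in groups where another library reached 20 RPM. Added after seeing the data was limma voom on the reads read back. The rule for named miRNAs was the 5 members, all other arms of the 3 related clusters, the markers, the rows most like or next in level to a member. Rows next in level were not needed and are not given. Members and lists were chosen with earlier results of these data known.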

Additional observations from a re-analysis of the deposited data

Results flagged for a closer look

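In all, 4 values were far from the other libraries of their group, with a gap beyond Dixon's 95% critical value for 4 samples. Each is the only library of its group above 0 at 14 weeks: miR-20a-5p at 14.5 RPM in wt replicate 1 and 55.1 RPM in ob/ob replicate 4, and miR-92a-1-5p at 16.6 RPM in wt replicate 1 and 22.3 RPM in ob/ob replicate 4. The same 2 libraries stand apart for both arms. With the other 3 libraries of a group at 0, any value above 0 is flagged, so these flags restate the zeros. In all 22 groups were examined, and the rate of about 1 in 20 flagged by chance does not hold for groups of zeros.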

How the results depend on the processing

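Whether replicate numbers pair the samples cannot be decided from so few samples. Deviations from the group means had r of -0.142 to 0.278 between same-numbered samples at 9 weeks and -0.241 to 0.202 at 14 weeks. Between samples of different numbers r was -0.383 to 0.337 at 9 weeks and -0.220 to 0.259 at 14 weeks. With the replicate block, the calls were 32 at 9 weeks (67 without it) and 2 for the interaction (0), miR-92a-3p at 9 weeks was -0.79 (limma adjusted p = 0.0824) and the interaction of miR-19a-3p 1.90 (0.0493). With the replicate block, rescaling and GC correction, 6 rows were called at 9 weeks, miR-19a-3p at 9 weeks was 0.78 and no longer passed the threshold (limma adjusted p = 0.145, against 0.0372 without the block), and miR-92a-3p was -0.038 and miR-93-5p 0.51 at 9 weeks and miR-92a-3p 0.032 at 14 weeks.

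Rescaling gave 38 calls at 9 weeks (20 higher, 18 lower, against 9 and 58 as deposited) and 48 at 14 weeks (26 higher, 22 lower, against 20 and 6). With the GC correction 40 were called at 9 weeks (19 higher, 21 lower). On these scales miR-19a-3p at 9 weeks was 0.97 and 0.72 and passed the threshold, miR-92a-3p was -0.23 and -0.0044 and no longer passed, and miR-93-5p turned to 0.34 and 0.46. miR-92a-3p at 14 weeks turned to 0.032 with the GC correction, and its interaction to -0.15 and -0.013. Lane 1 alone called 1 row and lane 2 alone 51, against 26 in the fit of both lanes together. In lane 1 alone miR-19a-3p was at 2.49 and miR-92a-3p at 0.047. The interaction called 4 rows with no filter and 3 with zeros as missing, where miR-19a-3p stood at 1.97 in both (limma adjusted p = 0.0487 and 0.0461). With zeros as missing miR-20a-5p was -0.36 at 9 weeks and 5.93 in the interaction, and miR-92a-1-5p -0.58 and 4.82. In these 2 interactions the wt zeros of 14 weeks stayed in, as the arms reached only 14.5 and 16.6 RPM there. The ob/ob zeros of 14 weeks were taken out, which left 1 ob/ob library of that age. The 2 values are therefore no effect with all zeros removed. With the library at 0 included, the ratio of miR-19a-3p to miR-93-5p at 14 weeks was -0.58.

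Leaving out each library in turn gave 53 to 71 calls at 9 weeks, 13 to 46 at 14 weeks (46 without wt replicate 1, 15 without wt replicate 3 and 13 without ob/ob replicate 3) and 0 to 3 for the interaction. At 9 weeks miR-92a-3p ranged from -0.88 to -0.53, miR-20a-5p from -0.27 to 2.82 and miR-92a-1-5p from -0.40 to 2.36. In the interaction miR-19a-3p ranged from 1.73 to 2.24, miR-20a-5p from -2.35 to 0.88 and miR-92a-1-5p from -2.26 to 0.78. The cause of these changes was not tested, except that a library left out or a lane alone means fewer samples. Of the values under other settings, 181 stayed the same, 13 changed sign, 5 gained and 5 lost the call and 10 counts moved further. With a library left out 175 stayed the same, 21 changed sign, 2 gained and 3 lost the call and 6 counts moved further. Staying the same means keeping direction and side of the threshold, for counts within 1.5 times. For ratios it means direction alone. Depth does not limit the members above 0, which had at least 60 reads.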
